A study of Homo sapiens with 4 samples.

Results

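The bins described here were enriched for lamin B1 in the prostate cancer line LNCaP and not enriched in the line VCaP. They were chosen by the deposited enrichment values themselves: a 40 kb bin of chromosomes 1 to 22, with the same position in the tables of both lines, had to reach a log2 enrichment of 0.3 in LNCaP and had to lie at or under 0 in VCaP. Of 67170 such bins with a value in both lines, 3399 met the rule, which is 5.06% of them and 136.0 Mb of sequence. All positions are in hg19. The levels of the bins in each line and the difference between the lines are therefore fixed by the choice and are given as a description.

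LNCaP and VCaP are established human prostate cancer lines, labelled as prostate adenocarcinoma and as bone metastatic prostate cancer. Both were untreated and fixed with formaldehyde; LNCaP grew in RPMI and VCaP in DMEM F12, each with fetal bovine serum, so medium and line cannot be told apart. Each line had 1 library precipitated with a lamin B1 antibody and 1 input library, 4 libraries in 4 groups of 1, so no difference between the lines has a replicate check and no test was made. Read numbers per library are not given in the values, and the depth is unknown. The steadiness of a value was judged from bins 3 apart in the same line, which differ with a noise SD of 0.15 in LNCaP and 0.22 in VCaP, or 0.27 for the difference between the lines. This noise holds real change along the chromosome as well as counting error.

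Lamin B1 is a B-type lamin, a filament protein of the nuclear lamina that lines the inner nuclear membrane. Chromatin held at the lamina forms long domains that are as a rule gene-poor, late replicating and weakly transcribed, and domains that differ between cell types often hold genes of other tissues. A value over 0 stands for enrichment in the lamin B1 library, taken here as relative to the input of the same line.

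No hg19 gene annotation or genome was used here. Genes named with a stretch of bins below are those known to lie there from general knowledge of the human genome, given as background; no value was computed for a gene. In the RefSeq table of GRCh38.p14 all 15 genes named in this way lie on the chromosome of their stretch, and the 6 pairs of such genes in different stretches of a chromosome stand in the same order as the stretches. The genes of the named stretches had promoters of very different base composition. Whether these promoters lie in chosen bins was not checked. The promoter of a gene that only overlaps its stretch can lie outside it, so the values describe the genes and not the bins. For 14 of them RefSeq gives the 250 bases before the start, in GRCh38.p14. The share of G and C in these ranged from 36.4% at POSTN to 82.8% at NPAS3, with a median of 60%, beside 58% over all 35116 promoters of the table, and 6 of the 14 lay under that median. The CpG dinucleotide, searched as the letters CG, occurred 14 times in the median named promoter and 11 times in the median of all.

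The promoters of DPYD, EREG, CDH12 and POSTN are shown because these genes belong to the longest or the most different stretches and differ in CpG content; ATRNL1 with 39 and NPAS3 with 33 CpG are richer and are not shown. They hold 25, 11, 10 and 1 CpG. At least as many are found in 21.6%, 50.3%, 52.2% and 93.9% of all promoters of the same length. Capitals mark each CG, and the sequences run 5′ to 3′ on the strand of the gene.
DPYD: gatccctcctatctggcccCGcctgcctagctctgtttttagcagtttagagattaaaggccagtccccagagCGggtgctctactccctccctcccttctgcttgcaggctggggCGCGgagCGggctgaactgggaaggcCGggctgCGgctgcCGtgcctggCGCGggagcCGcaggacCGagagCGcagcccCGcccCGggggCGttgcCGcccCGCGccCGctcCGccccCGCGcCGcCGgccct
EREG: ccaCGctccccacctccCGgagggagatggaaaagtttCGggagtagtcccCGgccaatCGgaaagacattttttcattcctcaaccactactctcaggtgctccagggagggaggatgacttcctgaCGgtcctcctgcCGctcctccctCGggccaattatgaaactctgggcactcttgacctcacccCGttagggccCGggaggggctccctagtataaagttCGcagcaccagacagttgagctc
CDH12: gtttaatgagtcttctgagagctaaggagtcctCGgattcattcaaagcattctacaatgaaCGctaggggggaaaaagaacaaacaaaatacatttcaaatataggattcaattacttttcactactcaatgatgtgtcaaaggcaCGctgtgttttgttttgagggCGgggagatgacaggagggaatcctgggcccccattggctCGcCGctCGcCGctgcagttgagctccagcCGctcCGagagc
POSTN: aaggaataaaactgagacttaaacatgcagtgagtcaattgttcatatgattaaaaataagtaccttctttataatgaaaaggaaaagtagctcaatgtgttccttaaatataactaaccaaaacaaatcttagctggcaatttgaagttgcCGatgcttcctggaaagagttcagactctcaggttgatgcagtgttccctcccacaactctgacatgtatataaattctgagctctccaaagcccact

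The same stretch as DPYD is known to hold MIR137, a microRNA gene with much study in neurons. Its mature products in RefSeq are shown with the seed, bases 2 to 8, in capitals, since that part pairs with target transcripts.
hsa-miR-137-3p: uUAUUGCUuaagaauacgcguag
hsa-miR-137-5p: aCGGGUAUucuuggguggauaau

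The first question was how often lamin B1 enrichment in LNCaP met a value at or under 0 in VCaP. In LNCaP, 17297 bins or 25.8% reached 0.3, and in VCaP 22511 bins or 33.5% lay at or under 0. Of the LNCaP-enriched bins, 19.7% were at or under 0 in VCaP, 28.2% lay between 0 and 0.3 there, and 52.2% reached 0.3 in both lines. Among bins under 0.3 in LNCaP the share at or under 0 in VCaP was 38.3%. The opposite pattern, 0.3 or more in VCaP and at or under 0 in LNCaP, held for 8654 bins or 12.9%. The median over all bins was 0.06 in LNCaP and 0.19 in VCaP, and this offset bears on both counts. With each line centred on its own median 5258 bins met the rule, and they made up 36.3% of the LNCaP-enriched bins.

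**Figure D1:**
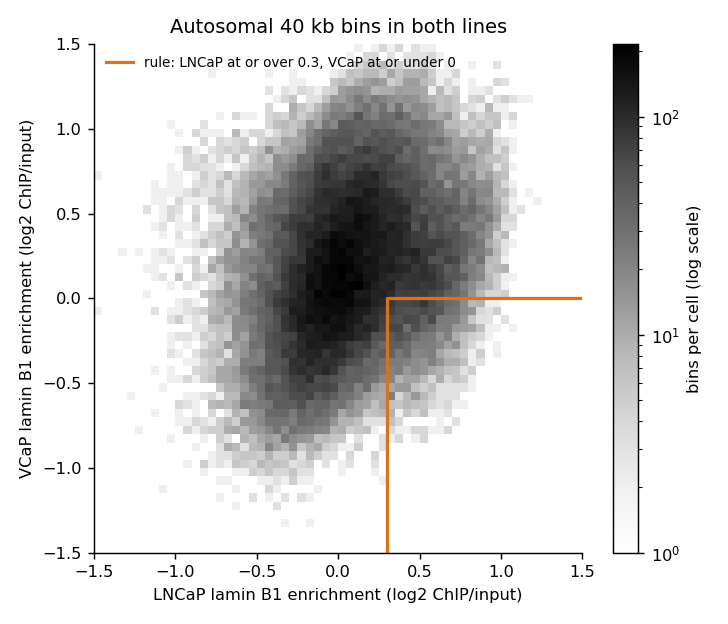
Log2 enrichment of lamin B1 ChIP over input in LNCaP (horizontal) and VCaP (vertical) for the 67170 autosomal bins, with darker cells holding more bins on a log scale. The 3399 chosen bins fill the lower right corner outlined in orange, and 211 bins lie outside the plotted range.

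Within the chosen bins LNCaP enrichment ran from 0.30 to 1.55 with a median of 0.48 (interquartile range 0.38 to 0.60). VCaP enrichment ran from -0.99 to just under 0 with a median of -0.17 (interquartile range -0.31 to -0.07). The VCaP minus LNCaP difference had a median of -0.69, beside 0.10 over all bins. It went beyond 2 noise SDs, 0.54, in 2674 of the 3399 bins or 78.7%, beside 8.05% of all bins that were lower in VCaP by that much. The remaining chosen bins therefore differed by less than 2 noise SDs, although they met both thresholds. The rule largely fixes the contrast with all bins, since every chosen bin is lower in VCaP by at least 0.3.

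Members at the thresholds differ little from bins left out. The 3 members lowest in LNCaP had values between 0.30007 and 0.30030, with VCaP between -0.81 and -0.14, and the 3 bins just under the LNCaP threshold had values between 0.2992 and 0.2995, with VCaP between -0.32 and -0.06. The 3 members highest in VCaP had values between -0.00018 and -0.00011, and the 3 bins just above 0 there had values between 0.000083 and 0.00019. The set is thus a corner of a continuous distribution, as the plot of bins in both lines shows.

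The strongest LNCaP bins were seldom members. From 0.3 to 0.4 in LNCaP, 21% of 4780 bins were at or under 0 in VCaP, from 0.5 to 0.6 it was 22.7% of 3156, from 0.6 to 0.8 it was 18.3% of 3850, and from 0.8 upwards 9.24% of 1624. The VCaP median was 0.33 in the lowest of these bands, 0.27 from 0.5 to 0.6 and 0.47 in the highest. These shares describe the choice and are not tested.

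The deposited hidden Markov model, which gave each bin the state AD or iAD, was built from the same values and is no independent check. AD is the state with the higher enrichment and is called associated here. Of the 3399 bins, 98.9% were associated in LNCaP, beside 37.4% of all bins, and 0.412% were associated in VCaP, beside 44% of all. Both together held for 3348 bins, and the exceptions were 37 bins outside the state in LNCaP and 14 inside it in VCaP. The model called 11626 bins associated in LNCaP alone, and the 3348 chosen ones among them made up 28.8%. Of the other 8278, 4394 failed only the VCaP threshold, 2278 only the LNCaP threshold and 1606 both, with medians of 0.32 in LNCaP and 0.09 in VCaP.

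The members lay in short pieces. Adjacent members formed 1067 runs with a median of 2 bins (80 kb), of which 402 were single bins and 453 had 2 to 4 bins. The 212 runs of at least 5 bins (200 kb) held 1738 members or 51.1%, and the 56 runs of at least 10 bins held 767. The longest run had 28 bins or 1120 kb. The deposited values have the form of an average over an entry and the 2 before it, so a run of up to 3 bins can come from a single entry. With that average undone and the same rule applied, 3776 bins met it in 2282 runs, and 19% of them lay in runs of at least 5 bins. Only 2049 or 60.3% of the members were among these 3776 bins.

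Longer runs also differed more, which the rule partly fixes, since length and level come from the same thresholds on averaged values. In single-bin runs the median was 0.38 in LNCaP and -0.06 in VCaP, and 39.3% of the bins were beyond 2 noise SDs. In runs of 2 to 4 bins the medians were 0.45 and -0.13, and 74.6% were beyond it. In runs of 5 to 9 bins they were 0.51 and -0.20 with 87.7%, and in runs of 10 bins or more 0.56 and -0.29 with 94.5%. All 212 runs of at least 5 bins had a mean difference beyond 2 noise SDs of their mean, from -0.43 to -1.23 with a median of -0.78, a count that the thresholds largely fix.

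With the values as deposited, runs of the opposite pattern and of shared enrichment were longer at the upper end. The VCaP-only bins formed 2390 runs, also with a median of 2 bins, of which the longest had 71 bins, and 59.2% of them lay in runs of at least 5. Bins at 0.3 or more in both lines formed 1990 runs with a median of 3 bins and a longest of 109, and 67.9% lay in runs of at least 5. These 2 sets were also larger, with 8654 and 9024 bins beside 3399. With each line centred on its median, 65.5% of the LNCaP-only bins lay in runs of at least 5. The other sets were not counted with centred values, so the order of the sets may depend on the zero point. With 1 library in each group these differences in run length were not tested.

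**Figure D2:**
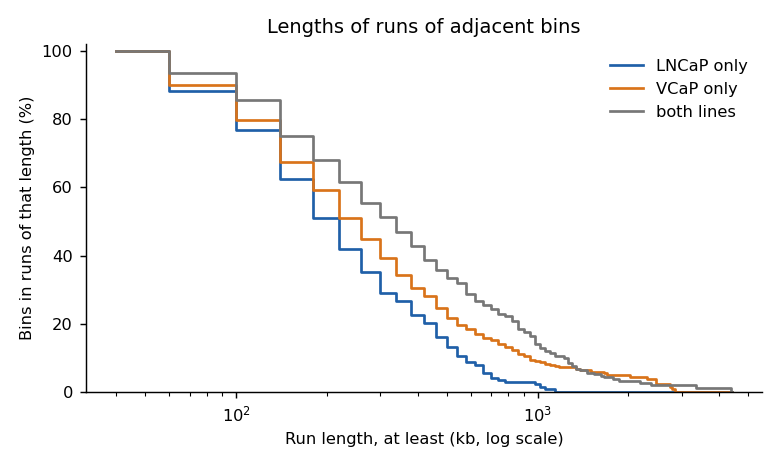
Share of bins (vertical, percent) that lie in runs of at least a given length (horizontal, kb, log scale) for LNCaP-only, VCaP-only and shared bins. The LNCaP-only curve ends at 1120 kb, the VCaP-only curve at 2840 kb and the shared curve at 4360 kb.

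What lay beside the runs was asked next. Of the 424 ends of runs of at least 5 bins, 246 or 58.0% came where VCaP rose over 0 while LNCaP stayed at 0.3 or more, and 167 or 39.4% where LNCaP fell under 0.3 while VCaP stayed at or under 0. At 10 ends both crossed, and 1 lay at a gap of the table. In 73 of the 212 runs both ends were set by VCaP alone, so the run was a dip of VCaP inside a longer LNCaP stretch, and in 33 both were set by LNCaP alone, so the run was an LNCaP rise inside a longer VCaP-low stretch. Of 2281 stretches at 0.3 or more in LNCaP, 719 held a member, and in the median one of these 50.0% of the bins were members. In 222 stretches every bin was a member.

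The levels on both sides of the run borders are given as a description, since a border is where a line crosses its threshold and the inside values are fixed by the rule. Over the 212 runs the mean was 0.53 ± 0.12 in LNCaP inside and 0.36 ± 0.19 in the 10 bins outside each end (SD over runs). In VCaP it was -0.25 ± 0.12 inside and -0.08 ± 0.20 outside. LNCaP was still the higher line outside 205 of the 212 runs, and outside 130 of them its mean stayed at 0.3 or more. The VCaP mean outside was at or under 0 for 135 runs and reached 0.3 for 5. Runs are not replicates of a line, and their SD is the spread between places.

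**Figure D3:**
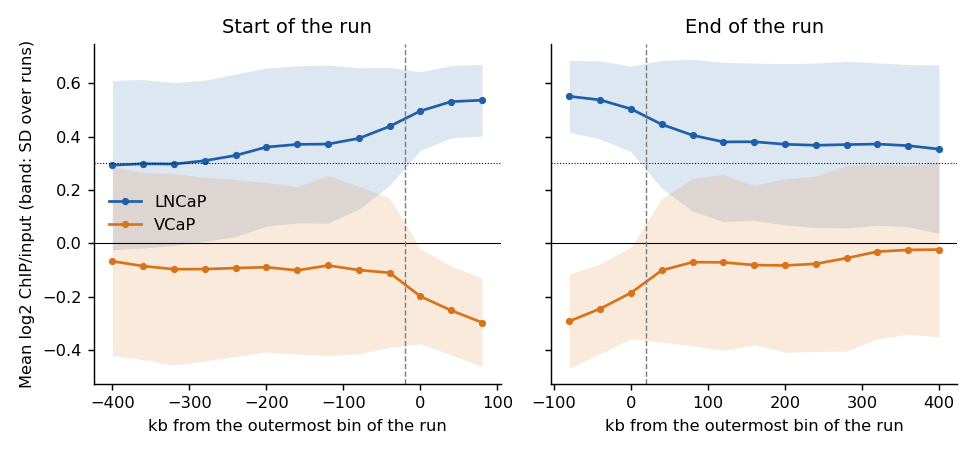
Mean log2 enrichment (vertical) by distance in kb from the outermost bin of a run (horizontal) at the start and end of the 212 runs of at least 5 bins, LNCaP in blue and VCaP in orange, with bands of 1 SD over runs. The dashed line is the run border, the dotted line is 0.3, and the 10 bins outside average 0.36 in LNCaP and -0.08 in VCaP.

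The place of the members within domains was close to that of other bins in LNCaP. Runs of associated bins gave 902 LNCaP domains, of which 418 held a member. These had a median length of 1040 kb and the others 520 kb, but a longer domain has more bins that can be a member. Of the members in LNCaP domains, 71.9% were 5 bins or more from the nearest border, and 28.1% lay in the outer 5 bins, where 32.8% of all LNCaP domain bins lie. In 66 domains at least 50% of the bins were members. In VCaP, 87.8% of the members outside domains were 5 bins or more from the nearest domain, beside 75.8% of all bins outside VCaP domains. The rule keeps members at or under 0 in VCaP and the states come from the same values, so the choice itself bears on this difference.

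The share of bins that were members differed widely between chromosomes. It was highest on chromosome 4 with 384 members or 8.18% of bins, followed by chromosome 5 with 7.62% and chromosome 3 with 7.58%. It was lowest on chromosome 22 with 1 member or 0.114%, chromosome 19 with 4 or 0.286% and chromosome 21 with 3 or 0.339%. The 7 chromosomes 15, 16, 17, 19, 20, 21 and 22 had shares under 2% and held 3.18% of the members with 15.8% of the bins. Over the 22 chromosomes the share went with length, with a Spearman rho of 0.76 and a Pearson r of 0.69, given as a description because the points share the same 4 libraries.

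Different thresholds limited the low chromosomes. On chromosome 16, 68.8% of bins reached 0.3 in LNCaP but only 8.05% were at or under 0 in VCaP. Chromosome 19 had shares of 24.0% and 2.58%, and chromosome 22 had 14.5% and 5.6%. Chromosome 21 was limited by LNCaP, with 1.24% and 35.3%. Chromosome 4 had 31.1% and 46.8%. Members made up 35.7% of the LNCaP-enriched bins of chromosome 13 and 34.1% of those of chromosome 3. For chromosome 16 this was 1.69%, and for chromosome 22 it was 0.787%.

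The level of whole chromosomes differed between the lines as well. The VCaP minus LNCaP difference of chromosome medians was -0.06 on chromosome 4 and 0.75 on chromosome 22, the chromosomes with the highest and lowest share. The order was not the same throughout: the difference was 0.13 on chromosome 16, where 1.16% of bins were members, and 0.16 on chromosome 9, where 6.05% were. When each chromosome of each line was centred on its own median, an alternative chosen after the data were seen, 4931 bins met the rule. The shares then ran from 5.36% on chromosome 16 to 11.1% on chromosome 9, with 6.29% on chromosome 22 and 7.35% on chromosome 4, and rho with length was 0.06. Of the members, 79.4% also met the centred rule, and they made up 54.8% of the bins that did. The low shares of chromosomes 19, 21 and 22 were thus seen with the deposited zero point, while with a zero point of each chromosome they were 6.65%, 8.48% and 6.29%. Chromosome 18, also short, had 6.53% members with the values as deposited.

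**Figure D4:**
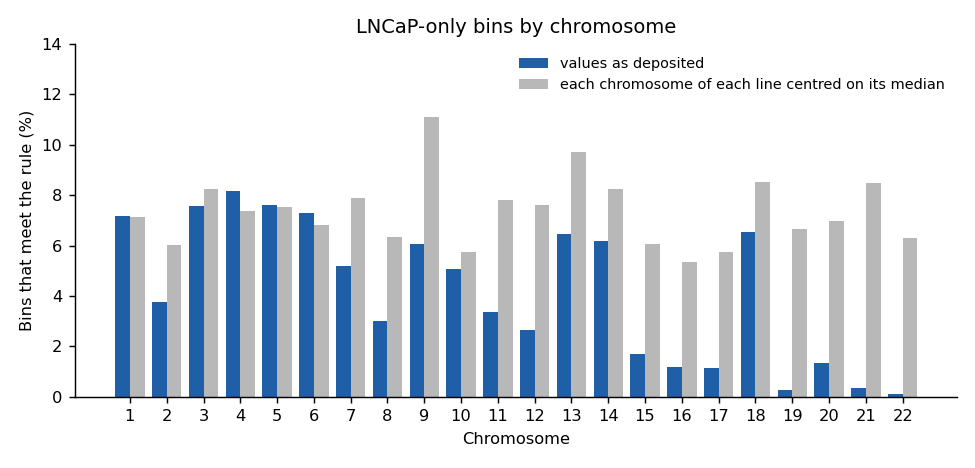
Bins that meet the rule as percent of the bins of each of the 22 chromosomes, with the values as deposited (blue) and with each chromosome of each line centred on its median (grey). The deposited values give 8.18% on chromosome 4 and 0.114% on chromosome 22, and the centred values 7.35% and 6.29%.

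The members were sparse near the ends of chromosomes, a feature the rule did not use. Within 10 Mb of an end lay 227 members or 6.68%, beside 14.4% of all bins. The share was lower than for all bins on 18 of the 22 chromosomes, but chromosomes 19, 21 and 22 held only 4, 3 and 1 members. For all bins at 0.3 or more in LNCaP the share within 10 Mb was 17.8%, for all bins at or under 0 in VCaP 5.51%, and for the VCaP-only bins 23.3%. The members are part of the LNCaP-enriched and of the VCaP-low bins. Their share was close to that of the VCaP-low bins and far from that of the LNCaP-enriched bins. Within 5 bins of a gap of the table or a chromosome end lay 47 members or 1.38%, beside 1.84% of all bins.

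The members were also spread unevenly over the genome, but no such counts were set beside them for other sets of bins. Whether members are more gathered than those is therefore not known. Of 520 windows of 5 Mb, 230 held no member, and the 52 windows with the most held 47.1% of the members. The window with the most was on chromosome 3 from 160000001 to 165000000, with 52 of 125 bins and means of 0.37 in LNCaP and -0.21 in VCaP. Next came chromosome 4 from 155000001 to 160000000 with 50 bins, and chromosome 1 from 95000001 to 100000000 with 49 and from 195000001 to 200000000 with 45. These windows were picked out after their counts were seen.

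The 10 longest runs and the 10 runs of at least 5 bins with the largest mean difference came to 18 distinct runs, 12 of which are known to hold at least 1 of the genes named here. The longest, 28 bins on chromosome 4 from 62080001 to 63200000, had means of 0.56 in LNCaP and -0.38 in VCaP. It overlaps ADGRL3, an adhesion G protein-coupled receptor of neurons also called latrophilin 3. Single bins ran from 0.34 to 0.82 in LNCaP and from -0.76 to -0.16 in VCaP; the rule keeps the lines apart in every run. VCaP rose just over 0 at both ends, to 0.04 in the bin beside each. Over the 10 bins outside the VCaP mean was -0.18 on the left and 0.07 on the right. LNCaP had 0.57 and 0.17 there.

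The second longest run was also second in mean difference. It had 26 bins on chromosome 1 from 193320001 to 194360000, and its means were 0.74 for LNCaP and -0.47 for VCaP. VCaP thus lay at -1.21 relative to LNCaP (noise SD 0.09). The noise SD of a run mean comes from bins along the chromosome, shrinks with the number of bins and holds no spread between libraries. The run lies in a long gene-poor stretch. Its bin from 193640001 to 193680000 had the largest difference of all members, with 0.74 in LNCaP and -0.87 in VCaP. LNCaP enrichment went on past its right end, with a mean of 0.82 over the next 10 bins, where VCaP rose to 0.12.

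The third longest run, 25 bins on chromosome 5 from 22280001 to 23280000, reaches into CDH12, a type II cadherin of the nervous system, with means of 0.65 in LNCaP and -0.38 in VCaP. Its lowest VCaP value, -0.86, was in the bin from 22840001 to 22880000, where LNCaP had 0.61. LNCaP set both ends, and VCaP stayed low outside, at -0.37 on the left and -0.35 on the right. A run of 24 bins on chromosome 3 from 1040001 to 2000000 holds CNTN6, a contactin, a cell adhesion molecule of axons, with 0.56 and -0.30.

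GRIA2 encodes a subunit of AMPA-type glutamate receptors, and its 3′ part lies in a run of 18 bins on chromosome 4 from 158200001 to 158920000. Mean enrichment was 0.65 for LNCaP and -0.53 for VCaP. The difference, -1.18 (noise SD 0.11), was the fifth in size. LNCaP bins ran from 0.32 to 0.87 and VCaP bins from -0.74 to -0.16. In the 10 bins after it LNCaP fell to 0.00 while VCaP stayed at -0.34. A run of 19 bins on chromosome 5 from 143680001 to 144440000 overlaps KCTD16, an auxiliary subunit of GABA-B receptors, with means of 0.75 and -0.26.

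The other runs of the 10 longest had 16 or 17 bins, and a tie at 16 bins was broken by the difference. On chromosome 9 from 76640001 to 77320000, the stretch of the nuclear receptor gene RORB, the means were 0.54 in LNCaP and -0.46 in VCaP. On chromosome 13 from 37920001 to 38600000, with POSTN, which encodes the matrix protein periostin, and TRPC4, a cation channel gene, they were 0.45 and -0.27. On chromosome 14 from 33400001 to 34080000, which overlaps NPAS3, a transcription factor gene, they were 0.47 and -0.24. On chromosome 10 from 116840001 to 117480000, which overlaps ATRNL1, they were 0.49 and -0.50. The runs on chromosomes 13 and 14 had the smallest differences of the 10, at -0.72 and -0.71.

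The largest mean difference was in a run of 9 bins on chromosome 18 from 30520001 to 30880000, which overlaps CCDC178. Mean enrichment was 0.64 for LNCaP and -0.58 for VCaP, and the difference was -1.23 (noise SD 0.16). LNCaP bins ran from 0.51 to 0.74 and VCaP bins from -0.78 to -0.19. In the 10 bins on either side VCaP was at 0.01 and 0.13, well above its level in the run.

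The run with DPYD and MIR137 was the fourth by difference. It had 12 bins on chromosome 1 from 98040001 to 98520000, with means of 0.53 in LNCaP and -0.65 in VCaP and a difference of -1.18 (noise SD 0.13). DPYD encodes dihydropyrimidine dehydrogenase, the first enzyme of pyrimidine breakdown. In order along the chromosome LNCaP had 0.35, 0.55, 0.55, 0.67, 0.58, 0.58, 0.46, 0.51, 0.54, 0.63, 0.53 and 0.45. VCaP had -0.49, -0.47, -0.55, -0.63, -0.68, -0.67, -0.64, -0.58, -0.67, -0.73, -0.80 and -0.88 in the same bins. VCaP was as low in the 10 bins on either side, at -0.57 and -0.63. LNCaP was lower there, with means of 0.04 and 0.32. Here LNCaP set both ends while VCaP stayed low across them. Past the right end LNCaP fell to 0.07 in the first bin. Within the 10 bins LNCaP rose again to 0.78, in a bin with VCaP at -0.47.

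The run with EPGN and EREG was the shortest named. These genes encode epigen and epiregulin, ligands of the epidermal growth factor receptor, and the run had 5 bins on chromosome 4 from 75080001 to 75280000. LNCaP had 0.33, 0.50, 0.51, 0.50 and 0.48 in order, and VCaP had -0.69, -0.64, -0.61, -0.63 and -0.56. The difference of the means was -1.08 with a noise SD of 0.21. On either side LNCaP was at -0.18 and 0.10 and VCaP at -0.51 and -0.46, and it was LNCaP that crossed its threshold at both ends.

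**Figure D5:**
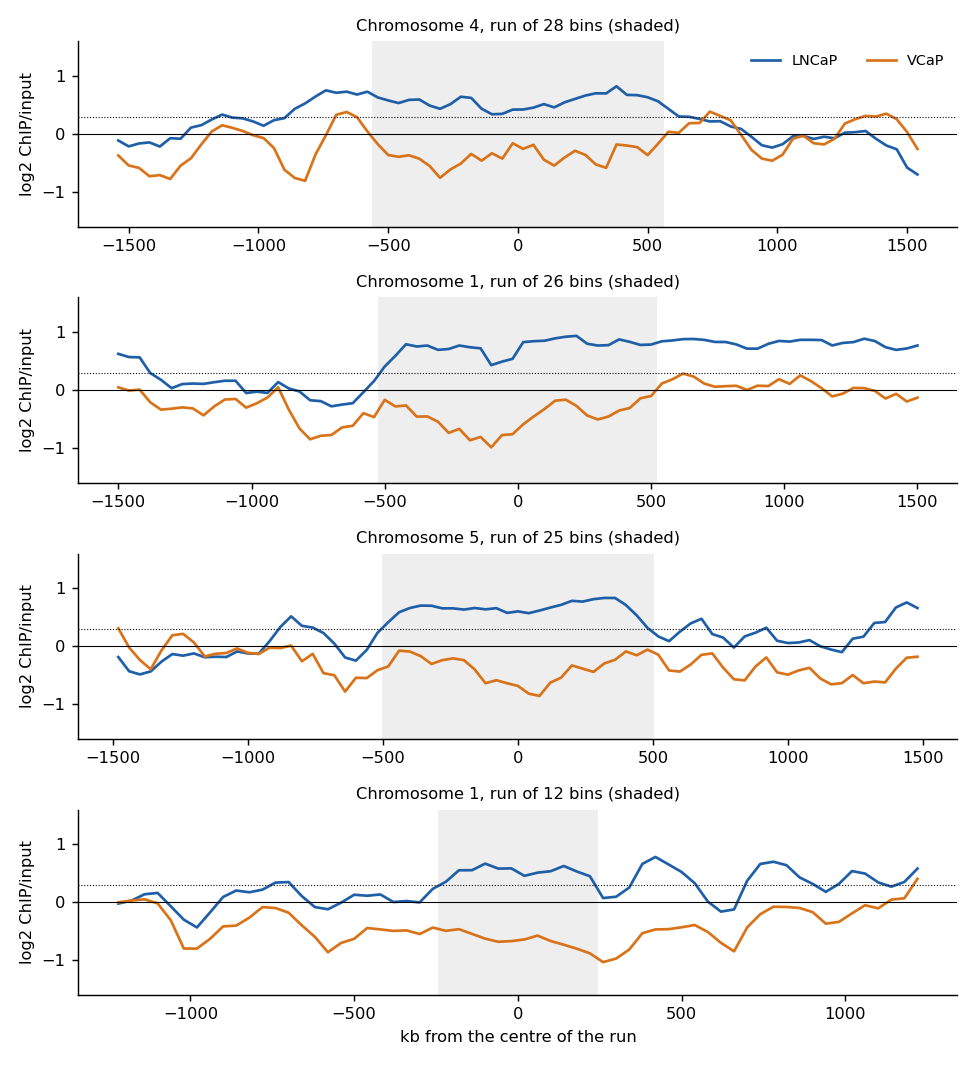
Log2 enrichment (vertical) of LNCaP (blue) and VCaP (orange) by distance in kb from the centre of 4 runs, shaded: the 3 longest, on chromosomes 4, 1 and 5, and the run of 12 bins on chromosome 1 with DPYD and MIR137. In the first VCaP rises just over 0 at both borders, with means of -0.18 and 0.07 over the 10 bins on either side. In the last VCaP stays low on both sides, where LNCaP has means of 0.04 and 0.32 over 10 bins. On the right LNCaP falls to 0.07 beside the run and is back at 0.78 at 420 kb from the centre.

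The remaining 5 runs with a large difference have no gene named here. They lie on chromosome 4 from 14160001 to 14440000 (difference -1.18), chromosome 10 from 110120001 to 110360000 (-1.14), chromosome 5 from 51400001 to 51680000 (-1.10), chromosome 3 from 80680001 to 80920000 (-1.09) and chromosome 6 from 19000001 to 19280000 (-1.09). LNCaP means were 0.87, 0.86, 0.78, 0.44 and 0.83, and VCaP means -0.32, -0.27, -0.32, -0.65 and -0.26. The run on chromosome 3 had the lowest value of these in both lines, and all 5 lay below the members' VCaP median of -0.17. None of the 18 named runs lay within 20 bins of a gap of the table or a chromosome end.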

How the data were processed

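Lamin B1 ChIP-seq was done with 1 ChIP and 1 input library for each of 2 cell lines. The authors deposited 1 table per line of log2 fold enrichment, per the file names, taken here as ChIP over the input of the same line, and 1 table of state labels from a hidden Markov model. The submitters' processing notes name hg19 and STAR, with no role; scaling and filters are not given in the sources used here. The deposited log2 values have the form of trailing means of 3 entries, which no label states; such a mean would shift the signal by about 40 kb and tie neighbouring bins. Bins 40 kb wide with a value in both lines were kept. Runs are adjacent members. Noise is 1.4826 times the median absolute difference of bins 3 apart, divided by the square root of 2, with both lines combined for the difference; this form was chosen over a direct SD of 0.20 after both were seen, because it is larger. For the mean of a run of at least 5 bins this noise is divided by the square root of its number of bins over 3. That step treats bins 3 apart as independent, so the noise of a run mean can be too small. Named runs are the 10 longest and the 10 of at least 5 bins with the largest mean difference. With 1 library per group no test was made. The members and lists were chosen with earlier results of these data known. Planned counts of genes and GC content per bin, and the gene lists, were not used, since the gene table is of GRCh38. All columns of values were used. Procedures were checked on simulated data with known runs. Scripts ran under Python 3.11.15 (scipy 1.17.1, pandas 2.3.3, numpy 2.4.6, matplotlib 3.10.9).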

Additional observations from a re-analysis of the deposited data

How the results depend on the processing

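Most results are counts or shares, and the sign of the members' difference is fixed by the rule, so no change of direction could occur for them. Alternatives on gene and GC content and on an upstream shift of gene positions were not run, since no hg19 annotation was used. A share counts as moved when it leaves the exact 95% binomial interval of the value given, which treats bins as independent and is too narrow. Centring each line on its median gave 5258 members, 65.5% of them in runs of at least 5 bins, a highest chromosome share of 13.1%, 96.5% associated in LNCaP alone and 36.3% of the LNCaP-enriched bins; quantile normalization gave 5350, 56.0%, 12.6% (chromosome 6), 94.7% and 23.9%. Centring each chromosome, chosen after seeing the data, gave 60.8%, 11.1% (chromosome 9), 88.5% and 35.9% for the same shares. Taking the deposited states as the rule gave 11626 bins, 96.1% and 28.1% (chromosome 6). Undoing the 3-entry mean gave 2282 runs, 19%, 9.04% (chromosome 5) and 85.7%. A LNCaP threshold of 0.2 gave 10.9% (chromosome 5), 94.1% and 20.4%, and of 0.4 gave 45.4%, 6.42% and 99.4%. A VCaP threshold of -0.1 gave 46.0%, 5.86% and 13.3%, and of 0.1 gave 59.0%, 11.7%, 98.0% and 28%. Runs of at least 10 bins held 22.6% of the members, and 1.91% lay within 10 bins of a gap or end. Leaving out 1 chromosome at a time gave 2995 to 3398 members in 944 to 1066 runs, with 49.8% to 53.0% (without chromosome 6) in runs of at least 5 bins. No paired analysis was possible because a group holds only 1 library.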

Other observations

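Chromosome X lay outside the rule, which takes chromosomes 1 to 22. Of its 3722 bins with a value in both lines, 147 or 3.95% reached 0.3 in LNCaP and were at or under 0 in VCaP. That share lies between those of the autosomes with the most and the fewest such bins, 8.18% on chromosome 4 and 0.114% on chromosome 22.

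The bin with the highest LNCaP value of all autosomal bins is a member. It lies on chromosome 16 from 46440001 to 46480000, with 1.55 in LNCaP and -0.04 in VCaP, and was picked out after its value was seen. Its distance to a gap of the table is not given here, so an effect of a nearby gap on this single value was not tested.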
